A study of Mus musculus with 4 samples.

Results

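Glycolysis and hypoxia response genes were followed across 4 arrays of cultured mouse bone marrow cells. A list of 48 genes was taken, 16 glycolytic enzymes and 32 other oxygen-responsive genes, and each was read by the probe set with its symbol as the only gene and the highest mean log2 signal over the 4 arrays. Of the 48, 45 had such a probe set (14 enzymes and 31 others) among 18193 genes in all. Eno1, Gpi1 and Bnip3l had none in the annotation given and were not analysed here. The measured values entered the choice through the probe set of each gene. The list itself was chosen with earlier results of these data known, so its shares beside those of all genes are descriptions. Each of the 45 was above the background floor described below on at least 1 array, and Eno2, Gbe1, Epas1 and Adm were above it on a single array.

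The cells came from mouse bone marrow as lineage-negative, Sca-1-positive, c-kit-positive cells, a fraction called LSK that holds blood stem and progenitor cells. Of 2 samples collected on day 3 after retroviral transduction, 1 carried a β-catenin vector and 1 an eGFP vector, eGFP being the fluorescent marker used as the control insert. The DKmix samples were β-catenin-transduced LSK cells held in culture for 50 and 300 days. All 4 grew in serum-containing medium with added pyruvate, the end product of glycolysis, and 4 cytokines, SCF, IL-3, IL-11 and Flt3. No untransduced cells were analysed here, there was 1 array per group and no eGFP culture of day 50 or day 300, so time in culture and β-catenin cannot be told apart on the DKmix arrays. The labels used here give neither the oxygen level nor the cell density of the cultures, nor the number of animals or clones behind a sample.

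Glycolysis turns glucose into pyruvate in the cytosol, and lactate dehydrogenase turns pyruvate into lactate when mitochondria do not take it up. Hypoxia-inducible factor (HIF) is a pair of an oxygen-regulated α subunit and the constant partner ARNT. When oxygen is present, prolyl hydroxylases mark the α subunit for destruction by the VHL ubiquitin ligase, and when it is scarce the pair binds DNA and raises glucose transporters, glycolytic enzymes, VEGF and its own hydroxylases. Blood stem cells in marrow are known for relying on glycolysis, and HIF activity has been studied as a regulator of their quiescence. RNA abundance of HIF subunits says little about HIF activity, since the α subunit is controlled as a protein.

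Values are signal intensities as deposited, which are comparable between arrays for 1 probe set and not between genes. The floor was an intensity of 48.3, the median of all values. A ratio with 1 array at or below it is a bound ("at least"), and a gene at or below it on both arrays of a pair was not measured in that pair. A gene was counted as higher or lower from a 2-fold difference. With 1 array per group there was no replicate error and no test. The sole error that could be measured was disagreement between probe sets of the same gene, with an SD of the log2 ratio between 0.63 and 0.92 in the 4 comparisons. It leaves out differences between cultures. Precision is limited by the number of arrays.

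RNA controls and cell type markers differed between the arrays. The ratio of 3′ to 5′ Gapdh signal was 4.14 on eGFP day 3, 1.18 on β-catenin day 3, 4.96 at DKmix day 50 and 1.06 at DKmix day 300, so DKmix day 300 and β-catenin day 3 were alike by it and DKmix day 50 stood nearest to eGFP. The β-actin ratios were 1.83, 1.32, 3.41 and 1.20 on these arrays. The summed intensity of 14 mast cell markers was 937.8 on eGFP day 3, 3937 on β-catenin day 3, 180250.0 at DKmix day 50 and 78860 at DKmix day 300. For 13 neutrophil markers it was 103632, 13436, 756.4 and 245.2, and for 14 monocyte, macrophage and dendritic cell markers 34160, 27093, 1007 and 6162. Cd68 alone gave 5407 of the last sum, with Csf1r, Lyz2 and 6 others of the 14 below the floor there. Of the mast cell sum at DKmix day 50, Cma1 gave 46986 and Cpa3 45531. Hdc was below the floor on that array, against 233.8 on β-catenin day 3. Tpsab1 and Mcpt1 were below the floor on every array, and Mcpt4 on β-catenin day 3 and at DKmix day 300. For 12 stem and progenitor markers the sum was 3836, 8490, 16158 and 11692. Of 11 measured, 4 were higher and 2 lower at DKmix day 50 than on β-catenin day 3 (16.1% and 15.7% of all genes). At day 300, 4 were higher and 3 lower (14% and 14.4%). Kit, which defines the LSK fraction and is also a mast cell marker, gave 55.8 and 82.9 on the day 3 arrays, near the floor. It gave 3460 and 1263 on the DKmix arrays. Cd34 gave 111.8, 804.1, 2069 and 4293, and Sox4 131.4, 899.9, 65.4 and 48.7. Ly6a, the Sca-1 gene, had no single-symbol probe set and was not analysed here, and Flt3 was below the floor on every array. Of the 13 neutrophil markers, 3 were above the floor at DKmix day 50, namely Ctsg at 384.9, Ltf at 141.3 and Mpo at 101.4. At day 300 it was 1, Ngp at 63.5. Elane, Prtn3, S100a8 and S100a9 were below the floor on both DKmix arrays. Ltf was below it on β-catenin day 3, at 8.4. In such mixed samples, fewer cells of a type and less RNA per cell cannot be told apart.

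DKmix day 300 was the array on which most of these genes had their highest value, 24 of the 45, where 21.8% of all genes did. Of the 45, 11 were highest there by at least 2-fold over each other array, against 3.99% of all 15292 genes above the floor. They were Car9, Eno2, Eno3, Pfkm, Pfkp, Plod1, Plod2, P4ha1, P4ha2, Slc2a3 and Slc16a3. DKmix day 50 was lowest by at least 2-fold for 10 members (3.71% of all genes), namely Hk2, Pfkl, Pgk1, Pkm, Tpi1, Pdk1, Slc16a3, Egln3, Ak4 and Vegfa. None of the 45 was highest by 2-fold on either day 3 array, where 3.14% of all genes were for eGFP and 2.4% for β-catenin. The hybridisation controls are RNAs added in set amounts to each hybridisation mix, and so do not track the RNA amount of a sample. After rescaling to them, 9 members were highest at day 300 by 2-fold (1.33% of all genes) and 13 lowest at day 50 (5.26%). Pfkp and Slc16a3 left the first group.

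**Figure D1:**
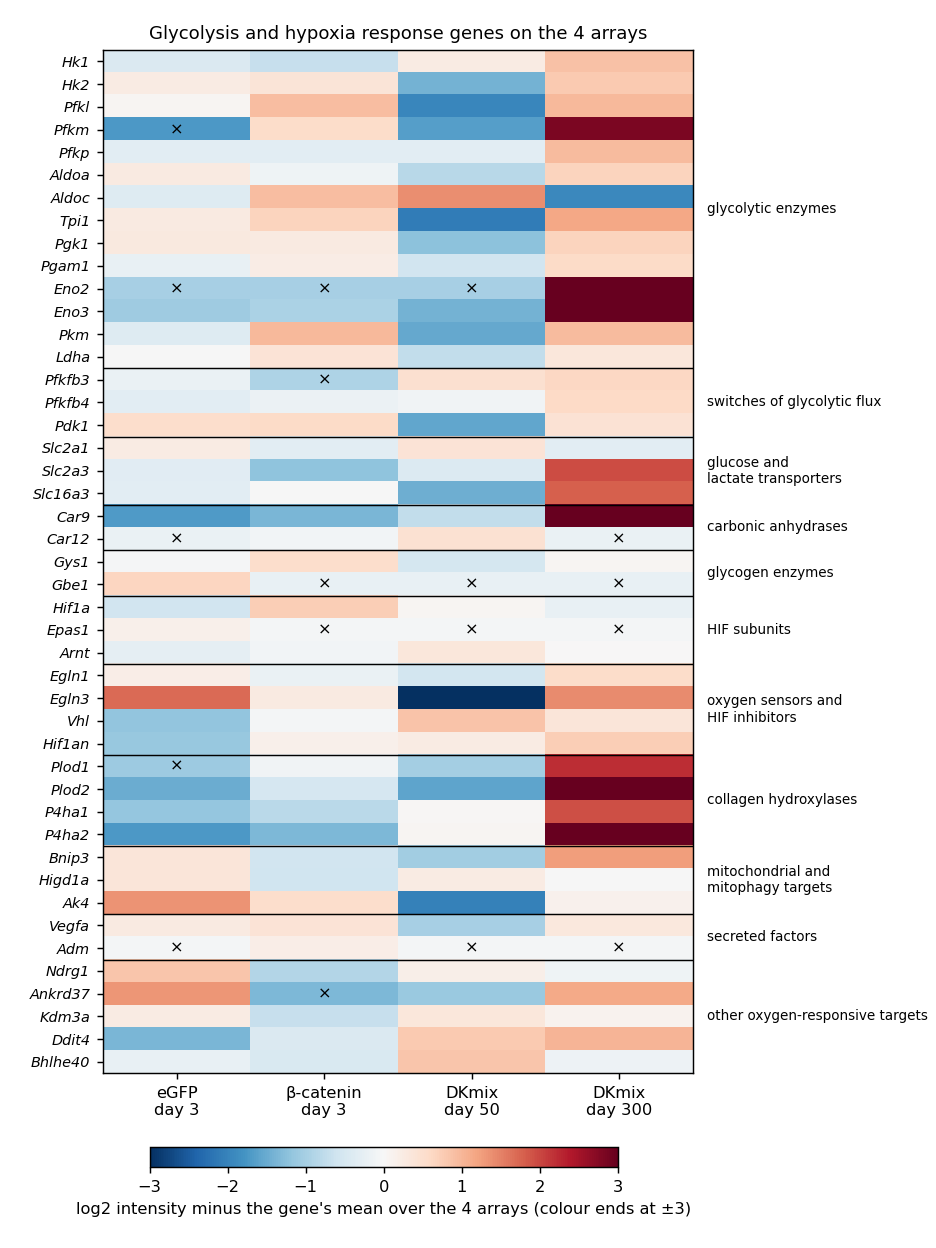
Each row is a gene grouped by role and each column an array. Colour gives the log2 intensity after the floor minus the gene's mean over the 4 arrays, and a cross marks a value at or below the floor. The DKmix day 300 column is the warmest for the collagen hydroxylases, Car9, Eno2 and Eno3, and the DKmix day 50 column the coldest for most enzymes.

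The glycolytic enzymes were low at DKmix day 50 and high again at DKmix day 300. Against β-catenin day 3, 7 of the 13 measured enzymes were at least 2-fold lower at day 50 (15.7% of all genes were) and 0 were higher (16.1% of all genes). Their median log2 ratio was -1.16, where all genes had 0.07. From day 50 to day 300, 12 of 14 enzymes were at least 2-fold higher (15.1% of all genes) and 1 was lower (15.9%), with a median log2 ratio of 2.04 against -0.14 for all genes. Between DKmix day 300 and β-catenin day 3, 5 of 14 were higher (14% of all genes) and 1 lower (14.4%). The median log2 ratio of that pair was 0.43 against -0.08 for all genes, and after rescaling to the hybridisation controls it was -0.61 against -0.90 for all genes. The 3′ to 5′ control ratios moved with the day 50 values, and their part in them was not tested. Against eGFP day 3, the array whose Gapdh ratio was nearest to that of day 50, the enzyme median at day 50 was -0.73. Of 13 enzymes 6 were lower and 1 higher (15% and 15.6% of all genes). The β-actin ratio was 1.83 on eGFP day 3 and 3.41 at day 50, so these arrays were not matched by it.

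Hexokinases trap glucose in the cell as glucose 6-phosphate. Hk2, the inducible form, gave 1657 on eGFP day 3, 1851 on β-catenin day 3, 528.8 at DKmix day 50 and 2412.6 at DKmix day 300. It was 3.50-fold lower at day 50 than on β-catenin day 3 and 1.30-fold higher at day 300, so that day 50 stood alone. Hk1, the form of most tissues, gave 975.7, 814.5, 1578 and 2425 and was highest at day 300, 2.98-fold above β-catenin day 3. Its second probe set also had its highest value at day 300, at 2007, but gave 201.4 on eGFP day 3 and 1392 on β-catenin day 3, where the first was level.

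Phosphofructokinase commits the sugar to glycolysis and is built from 3 kinds of subunit. Pfkl, the liver type, gave 649.1 on eGFP day 3, 1179 on β-catenin day 3, 159.9 at DKmix day 50 and 1223 at DKmix day 300. Day 50 was 7.38-fold below β-catenin day 3, and all 3 of its probe sets were lowest there. Pfkm, the muscle type, gave 45.9, 233.2, 51.1 and 1142, which put day 300 4.90-fold above β-catenin day 3 and 22.4-fold above day 50. On eGFP day 3 Pfkm was below the floor, so β-catenin was at least 4.83-fold higher. Pfkp, the platelet type, gave 1353, 1356, 1357 and 3254, level on 3 arrays and 2.40-fold above β-catenin day 3 at day 300. A second Pfkp probe set, at 98.1, 237.0, 16.5 and 412.9, was lowest at day 50, unlike the first, and another, at 88.2, 69.6, 19.8 and 16.4, was below the floor on both DKmix arrays. For Pfkl, day 300 was level with β-catenin day 3, and 1 of the 3 probe sets was highest at day 300.

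Aldolase splits the 6-carbon sugar and triose phosphate isomerase interconverts its products. Aldoa gave 11765 on eGFP day 3, 8869 on β-catenin day 3, 5481 at DKmix day 50 and 15457 at DKmix day 300. All 5 Aldoa probe sets had their highest value at day 300 and 4 their lowest at day 50. Each of the 5 carries the suffix _x_at, which marks probes that can match other transcripts. Aldoc, the brain form, ran the other way, with 144.1, 356.9, 496.8 and 49.2. It was 7.25-fold lower at day 300 than on β-catenin day 3 and 10.1-fold lower than at day 50, the single member lower at day 300 than on each other array by 2-fold (2.81% of all genes were). Tpi1 gave 5389, 7093, 1045 and 9897, and day 50 was 6.79-fold below β-catenin day 3. Its 3 probe sets all had their lowest value at day 50 and their highest at day 300.

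The later enzymes make ATP and pyruvate. Pgk1, phosphoglycerate kinase, gave 8594 on eGFP day 3, 8516 on β-catenin day 3, 2989 at DKmix day 50 and 11081 at DKmix day 300. Its second probe set gave 3590.2 at day 50 and 3587 at day 300 against 3729 on β-catenin day 3, so the day 50 low was not seen by it. Pgam1, phosphoglycerate mutase, gave 2631, 3601, 2081 and 4636, a range below 2-fold except between the DKmix arrays (2.23-fold).

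Enolases convert 2-phosphoglycerate to phosphoenolpyruvate, Eno2 being the neuronal and Eno3 the muscle form. Eno3 gave 118.1 on eGFP day 3, 127.5 on β-catenin day 3, 92.2 at DKmix day 50 and 2643 at DKmix day 300, 20.7-fold above β-catenin day 3. Eno2 gave 12.0, 5.7, 6.8 and 767.0, below the floor on all arrays but day 300, which was at least 15.9-fold higher than each. Each enolase had 1 probe set, so no second reading stands beside these values. Pkm, pyruvate kinase, gave 3522, 8951, 1572 and 8816, with day 50 5.70-fold below β-catenin day 3 and eGFP day 3 2.54-fold below it. Ldha, lactate dehydrogenase A, gave 11263, 15208, 6807 and 14365, with day 50 2.23-fold below β-catenin day 3. Gapdh, which lies between aldolase and Pgk1 in the pathway and was read by the array's control probes, gave 3′ signals of 14349, 16102, 6502 and 15750.2 and 5′ signals of 3470, 13665, 1312 and 14813. DKmix day 50 was the lowest array by either end.

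**Figure D2:**
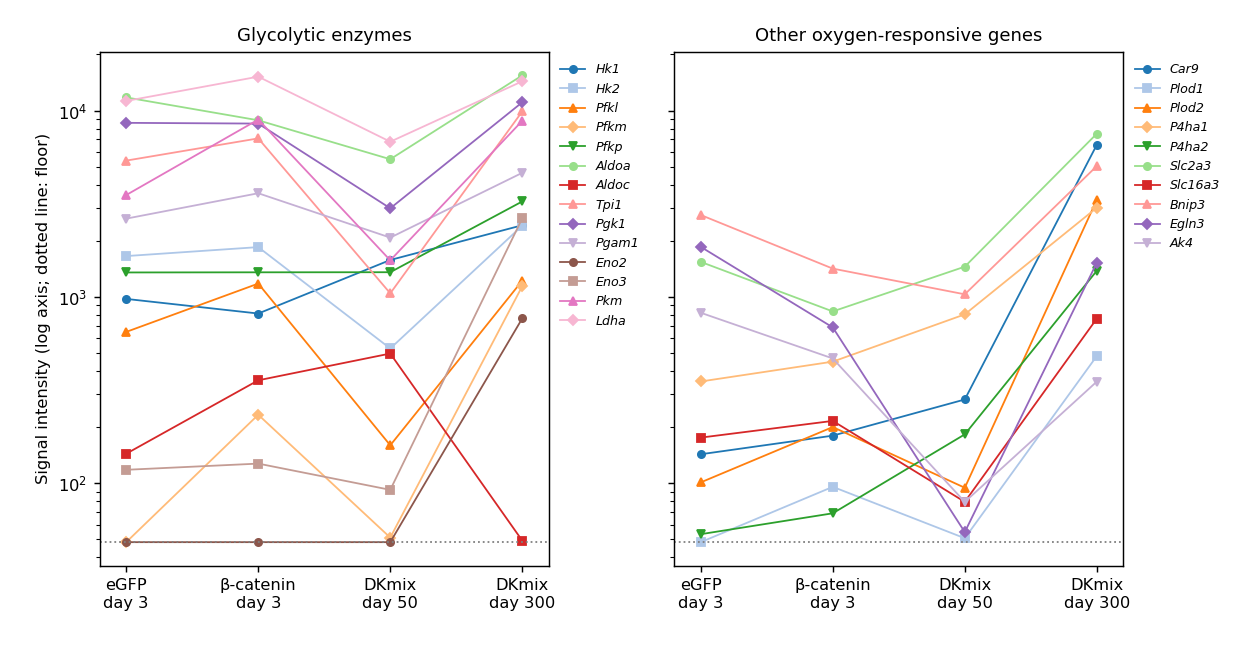
Signal intensity (log axis) of the 14 enzymes (left) and of 10 other members (right) on the 4 arrays, with values below the floor of 48.3 drawn at the floor (dotted line). Lines join the values of a gene and no course between arrays was measured. Most enzymes dip at DKmix day 50, Eno3 and Eno2 stand out at DKmix day 300, and Aldoc is lowest there.

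Regulators of flux did not share 1 course. Pdk1, a kinase that limits the use of pyruvate in mitochondria, gave 563.3 on eGFP day 3, 582.6 on β-catenin day 3, 131.8 at DKmix day 50 and 526.3 at DKmix day 300. Day 50 was 4.42-fold below β-catenin day 3, as with the enzymes. Pfkfb3, which makes the activator of phosphofructokinase, gave 79.9, 39.1, 128.2 and 140.0, at least 2.90-fold higher at day 300 than on β-catenin day 3. Its second probe set gave 23.3, 107.1, 19.1 and 83.4 and had the opposite direction, so no direction is given for Pfkfb3. Pfkfb4 gave 117.3, 130.1, 135.5 and 221.8, a range below 2-fold.

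Among the transporters of glucose and lactate, Slc2a3 and Slc16a3 were highest at day 300. Slc2a3, the high-affinity glucose transporter GLUT3, gave 1542 on eGFP day 3, 835.8 on β-catenin day 3, 1453 at DKmix day 50 and 7516 at DKmix day 300. Day 300 was 8.99-fold above β-catenin day 3, and all 4 Slc2a3 probe sets had their highest value there. Slc2a1, the basal glucose transporter GLUT1, gave 2840.4, 1936, 3184 and 1922, a range below 2-fold. Its other probe sets gave 1035, 888.2, 1184 and 1458, and 843.9, 731.7, 344.4 and 1541, both highest at day 300, so the Slc2a1 readings disagreed. Slc16a3, the lactate exporter MCT4, gave 175.8, 216.1, 79.5 and 764.8, 3.54-fold higher at day 300 than on β-catenin day 3 and 2.72-fold lower at day 50. Between the DKmix arrays the signal differed 9.62-fold for Slc16a3 and 5.17-fold for Slc2a3.

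Carbonic anhydrase 9, a membrane enzyme that takes part in pH control, had the highest measured ratio of the members between DKmix day 300 and β-catenin day 3, Eno2 having a bound alone. Car9 gave 143.1 on eGFP day 3, 180.1 on β-catenin day 3, 281.6 at DKmix day 50 and 6552 at DKmix day 300. That was 36.4-fold above β-catenin day 3 and 23.3-fold above day 50, and the other 3 arrays lay within 2-fold of each other. It was read by 1 probe set. Car12, a related membrane enzyme, gave 19.5, 52.4, 75.7 and 37.5 and stayed near the floor.

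Collagen hydroxylases, which modify proline and lysine in collagen chains and are HIF targets, were the one role with every member at least 2-fold higher at DKmix day 300 than on each other array. Plod2, a lysyl hydroxylase, gave 101.1 on eGFP day 3, 200.3 on β-catenin day 3, 94.6 at DKmix day 50 and 3316 at DKmix day 300, 16.6-fold above β-catenin day 3. Its second probe set gave 70.1, 56.3, 48.5 and 722.7. P4ha2, a prolyl hydroxylase subunit, gave 53.3, 69.0, 183.0 and 1382, 20.0-fold above β-catenin day 3, with day 50 already 2.65-fold above it.

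P4ha1, the other prolyl hydroxylase subunit, gave 351.7, 449.4, 806.1 and 3011, 6.70-fold above β-catenin day 3, and its second probe set 84.5, 201.0, 152.2 and 1349.7. Plod1 gave 40.5, 95.7, 50.7 and 481.7, 5.03-fold above β-catenin day 3, but its second probe set was highest on β-catenin day 3, at 89.4, and below the floor at day 300. The median log2 ratio of the 4 genes was 3.40 between day 300 and β-catenin day 3 and -0.04 between day 50 and β-catenin day 3. Of 9 stromal and endothelial markers, 5, 1, 4 and 3 were above the floor on the 4 arrays, with summed intensities of 673.8, 517.4, 560.6 and 959.4. Col1a1, Col1a2 and Col3a1 were below the floor at day 300. Pecam1, an adhesion molecule of endothelium that blood cells also carry, gave 153.7, 263.1, 266.0 and 743.0 and so moved with the collagen hydroxylases, and its part in their values was not tested.

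Of the HIF subunits, Hif1a differed most between arrays. Hif1a, the main oxygen-regulated subunit, gave 207.9 on eGFP day 3, 516.1 on β-catenin day 3, 320.0 at DKmix day 50 and 263.8 at DKmix day 300. It was 2.48-fold higher on β-catenin day 3 than on eGFP day 3, and day 300 was 1.96-fold below β-catenin day 3. Its other probe sets above the floor gave 233.9, 608.1, 439.4 and 125.0, and 185.6, 342.4, 221.5 and 162.6, with day 300 below β-catenin day 3 by 2.28 and 1.07 on the log2 scale. All 3 were highest on β-catenin day 3. Arnt, the constant partner, gave 117.3, 132.8, 180.0 and 143.3. Epas1, which encodes HIF-2α, was above the floor on eGFP day 3 alone, at 55.3.

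Among the oxygen sensors and HIF inhibitors, the prolyl hydroxylases Egln1 and Egln3 are also HIF targets. Egln3, a prolyl hydroxylase, gave 1856 on eGFP day 3, 686.1 on β-catenin day 3, 54.7 at DKmix day 50 and 1526 at DKmix day 300. Day 50 was 12.5-fold below β-catenin day 3 and 33.9-fold below eGFP day 3, the lowest ratio among the members, and day 300 was 27.9-fold above day 50. The second probe set, at 431.5, 181.3, 43.9 and 459.9, had the same low array. Against eGFP day 3, Egln3 at day 300 was 1.22-fold lower, so its direction at day 300 depended on which day 3 array was the reference.

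Egln1, the main prolyl hydroxylase, gave 777.4, 581.8, 457.4 and 988.8, and its second probe set 438.0, 331.1, 420.4 and 1738, both highest at day 300. Vhl, the ligase subunit that recognises hydroxylated HIF, gave 77.6, 168.6, 318.7 and 224.7, and Hif1an, an asparagine hydroxylase that blocks HIF activation, gave 58.2, 141.2, 151.3 and 213.4. Both were more than 2-fold lower on eGFP day 3 than on every other array (2.07% of all genes were). By their second probe sets the log2 ratios of β-catenin over eGFP were 0.39 for Vhl and 0.06 for Hif1an, short of 2-fold.

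Mitochondrial targets were mixed. Bnip3, which tags mitochondria for removal, gave 2752 on eGFP day 3, 1419 on β-catenin day 3, 1033 at DKmix day 50 and 5039 at DKmix day 300, 3.55-fold above β-catenin day 3. Ak4, a mitochondrial adenylate kinase, gave 822.2, 467.5, 79.4 and 351.2, with day 50 5.89-fold below β-catenin day 3 and day 300 1.33-fold below it. Higd1a, a respiratory chain assembly factor, gave 2442, 1248, 2244 and 1870.1, a range below 2-fold.

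Secreted factors and the remaining targets were not high together at day 300. Vegfa, the angiogenic growth factor, gave 294.6 on eGFP day 3, 326.3 on β-catenin day 3, 123.3 at DKmix day 50 and 303.6 at DKmix day 300. Its second probe set gave 120.1, 71.5, 202.3 and 152.5 and had the opposite direction at day 50, so no direction is given for Vegfa. Adm, a vasodilator peptide, was above the floor on β-catenin day 3 alone, at 58.5. Ddit4, an inhibitor of mTORC1, gave 498.9, 955.6, 2219.9 and 2600.3, with both DKmix arrays more than 2-fold above both day 3 arrays. Bhlhe40, a circadian repressor, gave 962.9, 817.0, 2016 and 1007 and was highest at day 50, by 2-fold over day 300.

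Kdm3a, a histone demethylase, gave 765.3, 400.5, 825.0 and 693.2, lowest on β-catenin day 3. Ankrd37 gave 306.5 on eGFP day 3, 38.0 on β-catenin day 3, 56.2 at DKmix day 50 and 270.0 at DKmix day 300, at least 6.35-fold lower on β-catenin day 3 than on eGFP day 3. Ndrg1, a stress-induced differentiation gene, was read by 5 probe sets that disagreed. The brightest gave 1182, 359.1, 754.8 and 607.9, and the next 569.7, 245.4, 290.7 and 1472. Of the 5, 4 were highest at day 300. Among glycogen genes, Gys1, glycogen synthase, gave 195.3, 287.1, 138.3 and 208.2, and Gbe1, the branching enzyme, was above the floor on eGFP day 3 alone, at 88.0.

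**Figure D3:**
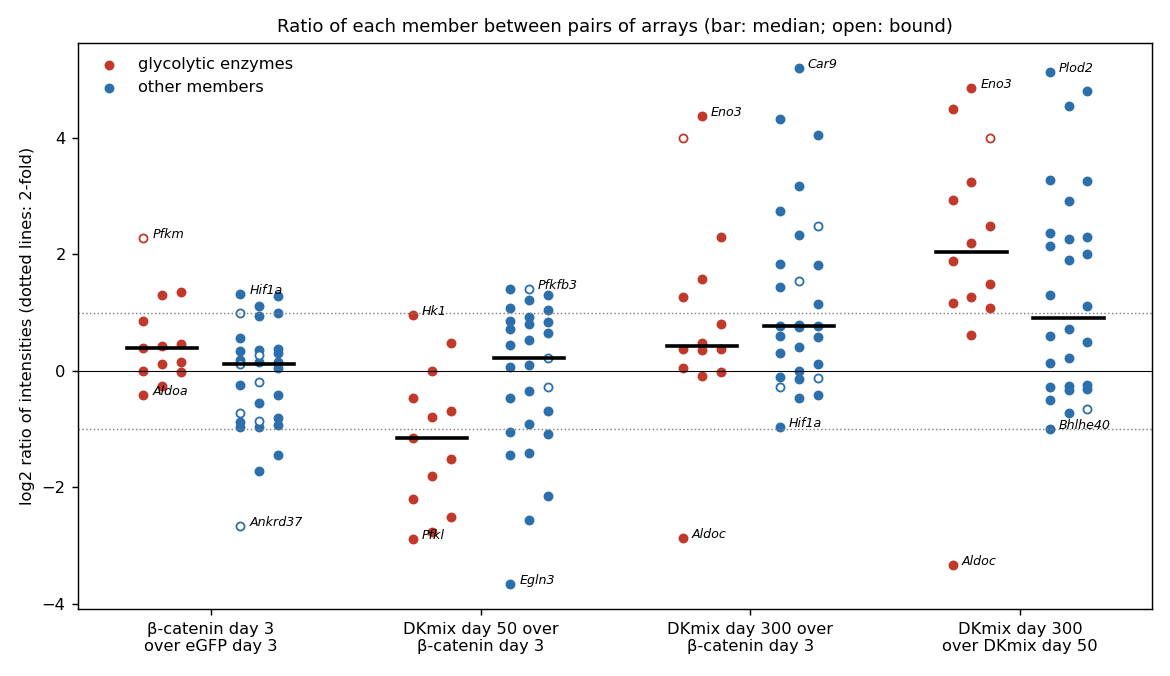
The log2 ratio of each member in 4 pairs of arrays, glycolytic enzymes in red and other members in blue. Bars are medians, open points are bounds and dotted lines mark 2-fold. Against β-catenin day 3, the enzyme median lies at -1.16 at DKmix day 50 and 0.43 at day 300 (-0.61 after rescaling to the hybridisation controls), the other members at 0.22 and 0.77 (-0.50 and -0.28 on that scale).

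Enzymes and other members separated at DKmix day 50. The median log2 ratio against β-catenin day 3 was -1.16 for the enzymes and 0.22 for the other members (-2.10 and -0.50 after rescaling to the hybridisation controls), a difference of -1.38, and the other members had 6 of 29 higher and 7 lower (16.1% and 15.7% of all genes). Without the HIF subunits, sensors and inhibitors, the median of the others was 0.53. Against eGFP day 3 the difference of medians was -0.72, with the others at -0.0078. At day 300 the medians against β-catenin day 3 were 0.43 and 0.77 (-0.61 and -0.28 on that scale), a difference of -0.33, and 12 of 29 other members were higher with 0 lower (14% and 14.4% of all genes). Against eGFP day 3 the order was turned, with 0.90 for the enzymes and 0.34 for the others. From day 50 to day 300 the enzymes had 2.04 and the others 0.91, with 14 of 28 others higher and 1 lower (15.1% and 15.9% of all genes). The DKmix comparisons share arrays, so these values are not independent of each other.

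Over all members, 17 of 43 were higher and 1 lower at day 300 than on β-catenin day 3, against 10 higher and 9 lower after rescaling to the hybridisation controls. All genes had 14% higher and 14.4% lower, and 4.17% and 45.1% after rescaling. For day 50 the counts were 6 higher and 14 lower of 42, where all genes had 16.1% and 15.7%. On the rescaled values they were 0 and 21, where all genes had 4.92% higher and 39.3% lower. Relative to the median of all genes, which that scale moved to -0.73 at day 50 and -0.90 at day 300, the enzymes stood at -1.37 and 0.29 and the other members at 0.23 and 0.62. The comparison of the DKmix arrays kept 26 higher and 2 lower of 42 against 25 and 2, where all genes as deposited had 15.1% and 15.9%. Counts follow the brightest probe set, and so include Pfkfb3 and Vegfa at day 50 and Pfkfb3 and Plod1 at day 300. Their second probe sets had the opposite direction. Nearest to 2-fold for day 300 over β-catenin day 3 were Egln3 at a log2 ratio of 1.15 and Aldoc at -2.86 inside it, and Aldoa at 0.80 and Hif1a at -0.97 outside. For day 50 they were Kdm3a at 1.04 and Gys1 at -1.05 inside, and Hk1 at 0.95 and Plod1 at -0.92 outside.

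Between β-catenin and eGFP at day 3, members differed about as often as all genes. Of 44 measured, β-catenin exceeded eGFP by 2-fold or more for 6 and fell short of it by as much for 3, where 10.2% and 9.42% of all genes did (19.6% in either direction). The higher were Pfkm, Pkm, Aldoc, Hif1a, Hif1an and Vhl, and the lower were Egln3, Ankrd37 and Ndrg1. The enzyme median was 0.40 and that of the other members 0.12, where all genes had -0.01. Of the 44, 27 had ratios above 0 and 17 below. Closest to 2-fold without reaching it were Plod1 and Plod2, both at a log2 ratio of 0.99, and Ddit4 at 0.94 on the higher side, and Higd1a at -0.97, Bnip3 at -0.96 and Kdm3a at -0.93 on the lower. The 3′ to 5′ ratios and the neutrophil marker signal were both higher with eGFP, and their part in these differences was not tested.

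Where a member had a second probe set, the readings could be compared. Of 8 members past 2-fold between day 300 and β-catenin day 3 with a second probe set, 6 had the same direction by it and 4 were past 2-fold as well, against 81.3% with the same direction among all genes past 2-fold. The exceptions were Pfkfb3 and Plod1. At day 50, 9 of 11 had the same direction, against 71.7% of all genes, with Pfkfb3 and Vegfa as exceptions. Between the DKmix arrays it was 11 of 13 (63.5% of all genes), with Pgk1 and Vegfa as exceptions, and at day 3 it was 5 of 5 (68.3% of all genes).

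**Figure D4:**
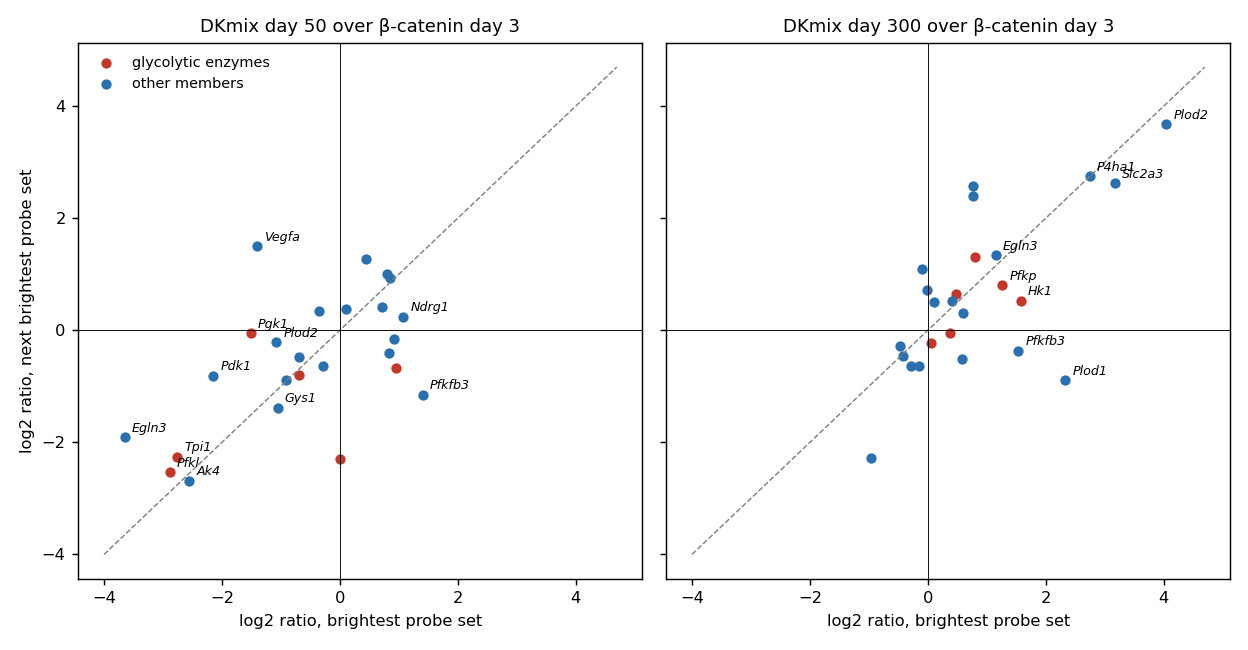
The log2 ratio by the brightest probe set (horizontal) against the next brightest (vertical) for members with at least 2 probe sets, at DKmix day 50 (left) and day 300 (right) over β-catenin day 3. The dashed line marks equal ratios. Plod2, P4ha1 and Slc2a3 lie high by both readings at day 300, Plod1 and Pfkfb3 change sign, and Tpi1, Pfkl, Egln3 and Ak4 lie low by both at day 50.

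Promoter windows were read for the members whose values ranged most. HIF binds a short core, spelled ACGTG or GCGTG, and both spellings were searched on both strands of the 300 bases that run from 250 before to 50 after the start of a gene, in RefSeq's GRCm38.p6 table. Of the 48 names, 42 had a window, and 30 of the 42 (71.4%) held at least 1 core in the first listed window, against 14380 of all 32851 windows (43.8%). The members' windows were also richer in the dinucleotide CG, with a median of 21 against 7 for all windows, and both cores contain CG. For the enzymes it was 10 of 16 and for the other members 20 of 26. Overlapping matches on the 2 strands were counted by their first base.

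The windows below belong to the member with the widest range of intensity in each role, where that was at least 8-fold and a window was listed, since these carry the differences between the arrays. Capitals mark a core on either strand, so that CACGT and CACGC are ACGTG and GCGTG read on the opposite strand. The Car9 window (chr4:43506776-43507075, plus strand) held 1 core and belongs to the gene with the widest range, that of P4ha2 (chr11:54100674-54100973, plus strand) held 4, and that of Egln3 (chr12:54203825-54204124, minus strand), the gene lowest at day 50, held 1. The Eno3 window (chr11:70656926-70657225, plus strand) held 1, that of Slc16a3 (chr11:120948817-120949116, plus strand) 2 and the first of the Ak4 windows (chr4:101419039-101419338, plus strand) 2. A core is a match of letters and not a shown binding site.
Car9: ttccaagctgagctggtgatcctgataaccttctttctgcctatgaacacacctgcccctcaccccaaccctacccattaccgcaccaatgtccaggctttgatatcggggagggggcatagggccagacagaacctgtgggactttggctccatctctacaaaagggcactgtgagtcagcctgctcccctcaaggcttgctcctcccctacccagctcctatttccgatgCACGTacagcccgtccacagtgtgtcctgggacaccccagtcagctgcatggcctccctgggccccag
P4ha2: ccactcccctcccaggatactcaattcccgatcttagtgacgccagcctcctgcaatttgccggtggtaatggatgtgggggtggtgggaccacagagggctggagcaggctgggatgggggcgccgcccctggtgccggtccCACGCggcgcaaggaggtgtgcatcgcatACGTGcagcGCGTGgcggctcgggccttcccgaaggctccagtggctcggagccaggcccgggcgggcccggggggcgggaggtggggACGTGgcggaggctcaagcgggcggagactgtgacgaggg
Egln3: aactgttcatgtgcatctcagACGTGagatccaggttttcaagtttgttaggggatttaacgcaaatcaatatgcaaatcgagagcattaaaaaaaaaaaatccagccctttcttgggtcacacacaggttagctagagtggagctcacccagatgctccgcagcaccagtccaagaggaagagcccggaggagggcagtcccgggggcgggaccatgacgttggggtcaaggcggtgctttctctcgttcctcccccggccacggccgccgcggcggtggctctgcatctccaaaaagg
Eno3: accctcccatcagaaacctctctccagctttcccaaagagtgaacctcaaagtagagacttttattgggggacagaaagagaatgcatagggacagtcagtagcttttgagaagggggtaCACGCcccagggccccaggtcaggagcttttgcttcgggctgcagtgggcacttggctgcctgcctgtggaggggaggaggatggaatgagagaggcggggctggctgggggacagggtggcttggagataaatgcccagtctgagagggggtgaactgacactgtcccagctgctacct
Slc16a3: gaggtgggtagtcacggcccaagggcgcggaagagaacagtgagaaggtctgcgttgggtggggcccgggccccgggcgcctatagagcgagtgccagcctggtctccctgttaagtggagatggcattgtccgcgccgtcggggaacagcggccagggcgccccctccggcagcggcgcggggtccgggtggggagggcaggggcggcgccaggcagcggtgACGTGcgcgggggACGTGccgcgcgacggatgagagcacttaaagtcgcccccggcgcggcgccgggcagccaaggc
Ak4: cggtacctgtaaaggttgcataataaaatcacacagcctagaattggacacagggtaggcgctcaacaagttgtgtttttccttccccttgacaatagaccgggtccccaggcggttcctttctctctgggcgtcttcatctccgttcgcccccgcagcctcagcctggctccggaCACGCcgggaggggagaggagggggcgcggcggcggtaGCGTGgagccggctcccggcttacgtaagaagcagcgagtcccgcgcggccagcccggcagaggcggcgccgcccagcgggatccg

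Windows without a core included genes that moved in the same way as these. Eno2, Pkm, Tpi1, Aldoa and Hk1 had none in the first listed window, and Pkm and Tpi1 were 5.70-fold and 6.79-fold below β-catenin day 3 at day 50, where Pfkl, with 1 core, was 7.38-fold below. Ldha, with 7, had the most among the members and differed 2.23-fold between day 50 and β-catenin day 3. That none was found says that these letters are not in those 300 bases.

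Genes of the same pathways outside the members gave a less uniform picture. Among other oxygen-responsive targets, 9 of 21 measured were at least 2-fold higher at DKmix day 300 than on β-catenin day 3 and 4 lower, with a median log2 ratio of 0.27 (-0.40 after rescaling to the hybridisation controls, with 5 of 23 higher and 10 lower). All genes had 14% higher and 14.4% lower, and 4.17% and 45.1% after rescaling. The list had 6 of 21 higher and 5 lower against eGFP day 3 (15.8% and 15.8% of all genes), with a median of -0.14. Kdm4b, a histone demethylase, gave 65.1 on eGFP day 3, 33.7 on β-catenin day 3, 12.5 at DKmix day 50 and 436.6 at DKmix day 300, at least 9.04-fold higher than on β-catenin day 3. Tmem45a was above the floor at day 300 alone, at 328.6, at least 6.80-fold higher. Ero1a, an oxidase of the endoplasmic reticulum, gave 2084, 1739.6, 5261 and 7667, 4.41-fold higher at day 300, and Mxi1, a MYC antagonist, gave 1644, 290.7, 202.9 and 1307, 4.50-fold higher. Cxcr4, the chemokine receptor, gave 653.4, 215.1, 11.9 and 2.9 and was at least 4.45-fold lower on both DKmix arrays. At day 50, 5 of 23 were higher and 7 lower (median -0.23), where 16.1% and 15.7% of all genes were. Anxa2 was 27.8-fold lower, at 77.2 against 2145.

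The pentose phosphate pathway, which diverts glucose 6-phosphate to NADPH and ribose, did not take the course of the glycolytic enzymes. Of 7 measured genes, 0 were higher and 3 lower at day 300 than on β-catenin day 3 (14% and 14.4% of all genes). Their median log2 ratio was -0.72 (-1.76 after rescaling), against -0.08 for all genes (-0.90 after rescaling). Pgd, phosphogluconate dehydrogenase, gave 12382 on eGFP day 3, 4015 on β-catenin day 3, 3158 at DKmix day 50 and 1058 at DKmix day 300, 3.79-fold lower. Rpia, ribose 5-phosphate isomerase, gave 2120.4, 1123, 1118 and 512.8, 2.19-fold lower. Tkt, transketolase, gave 18109, 12165, 11818 and 5703, 2.13-fold lower. At day 50, 0 of the 7 passed 2-fold in either direction (31.8% of all genes), while 7 of 13 glycolytic enzymes were lower (15.7% of all genes). The median was -0.11, and after rescaling it was -1.05 with 4 lower, where 5593 of 14222 genes were lower. Pgd and Tkt were also higher on eGFP day 3 than on β-catenin day 3, as the neutrophil markers were, and the part of other cell types in these values was not tested.

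Other glycolysis and pyruvate genes had 0 of 17 higher and 4 lower at day 300 (median -0.03), where all genes had 14% and 14.4%. With equal array medians 4 were higher and 3 lower (median 0.29), against 2615 and 1244 of all 13032 genes. After rescaling to the hybridisation controls 0 of 19 were higher and 8 lower (median -0.69), against 559 and 6049 of all 13418 genes. At day 50, 2 of 18 were higher and 4 lower (median -0.06), where 16.1% and 15.7% of all genes were. After that rescaling 1 was higher and 9 lower, against 700 and 5593 of all 14222 genes. Slc16a1, the lactate and pyruvate transporter MCT1, gave 490.3 on eGFP day 3, 801.5 on β-catenin day 3, 70.3 at DKmix day 50 and 259.2 at DKmix day 300, 11.4-fold lower at day 50 and 3.09-fold lower at day 300. It was thus low at day 300, where the exporter Slc16a3 was high. Pgm1, phosphoglucomutase, gave 398.3, 793.0, 123.9 and 1014, and at day 50 was 6.40-fold lower, like Tpi1 and Pkm. Hk3, a hexokinase of myeloid cells, gave 229.3, 374.7, 18.4 and 93.7.

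In the list of other glycogen genes, 3 of 8 were higher at day 300 and 0 lower (median 0.32), where all genes had 14% and 14.4%. Pygl, a glycogen phosphorylase, was among the higher, at 1695, 394.4, 417.7 and 1323. After rescaling the median was -0.73 with 0 higher and 3 lower, against 559 and 6049 of all 13418 genes. At day 50, 2 of 9 were higher and 1 lower, where 16.1% and 15.7% of all genes were. The median was 0.08, -0.06 with equal array medians and -0.86 after rescaling. Other HIF pathway genes had 1 of 13 higher and 3 lower at day 300 (median -0.19, 0.13 with equal array medians), where all genes had 14% and 14.4%. At day 50 they had 4 of 14 higher and 4 lower, where all genes had 16.1% and 15.7%. Their median there was 0.06, -0.04 with quantile normalization, -0.07 with equal array medians and -0.78 after rescaling. The higher one at day 300 was Cited2, which competes with HIF for the coactivator p300, at 1872, 1166, 7111 and 4409. It was 6.10-fold higher at day 50 and 3.78-fold higher at day 300 than on β-catenin day 3.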

How the data were processed

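RNA of 4 samples was measured on 1 mouse oligonucleotide array each. The authors deposited linear signal intensities, and the submitters' processing notes name MAS5, an algorithm that gives 1 signal per probe set from its matched and mismatched probes. Its version is not given in the sources used here. Each array had a mean of 150.0 once 2% of values were trimmed from both ends, which shows that arrays had been scaled, and no further scaling was done. Of 45101 probe sets, 34958 had 1 symbol in the platform's annotation, 932 had several, 9211 were unnamed there, and 64 controls were left out. By Entrez identifier 34754 matched RefSeq and 0 symbols differed.

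Groups came from the sample titles. Intensities were set to at least 48.3 (percentile 50 of all values), log2 ratios were taken in 4 pairs of arrays, and the authors' values were otherwise unchanged. Depth has no meaning for arrays. No test was possible with 1 array per group. All members were named by role, and pathway genes, up to 4 per list and comparison, by the largest ratios past 2-fold. Alternatives were other scales (quantile, equal medians, hybridisation controls, lowess with fraction 0.3), other floors (11.0 and 134.6), other probe set rules, another reference array and a shorter list. The code was tested on simulated data. Python 3.11.15, numpy 2.4.6, pandas 2.3.3, scipy 1.17.1 and statsmodels 0.14.6 were used. The members, roles, pathway lists and shown promoters were chosen with earlier results of these data known.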

Additional observations from a re-analysis of the deposited data

How the results depend on the processing

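No paired analysis was possible because each group held 1 array and no result came from a test. For medians, a move was judged against the probe set SD scaled to the number of genes, and for counts against 1.5 times. Of the counts and medians under the alternatives, 130 stayed within these limits, 34 moved and 4 changed sign from a median that was itself past its limit. A sign change from a smaller median was counted by the size of its move alone. Chosen after seeing the data were eGFP day 3 as the reference, probe sets without the suffixes _x_at or _s_at, and the list without HIF subunits, sensors and inhibitors.

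After rescaling to the hybridisation controls, enzyme medians were 0.79 for β-catenin over eGFP at day 3, and -2.10 (DKmix day 50) and -0.61 (day 300) over β-catenin day 3, and those of the other members 0.54, -0.50 and -0.28. Counts were then 10 higher at day 3, 0 higher at day 50, and 10 higher and 9 lower at day 300. Of all genes, 21.4% were higher at day 3, 4.92% higher at day 50, and 4.17% higher and 45.1% lower at day 300 on that scale. With equal array medians, the enzymes had 0.75 for day 300 over β-catenin day 3 and 2.51 for day 300 over day 50, the others 1.09 and 1.18. In the last pair 1 member was lower (1098 of 13169 genes). That scale moved the median of all genes to 0.19 and 0.26. Quantile normalization gave enzyme medians of 0.68 at day 3 and -1.53 at day 50. It gave 2 members lower at day 300 than on β-catenin day 3 (1786 of 13030 genes). Between the DKmix arrays the others had 0.64, with 1 member lower (1937 of 13184 genes). Lowess centring gave 0.65 and -1.63 for the enzymes at day 3 and day 50 and 1 member lower between the DKmix arrays (1523 of 13100 genes). The cause of these moves was not tested beyond the change of scale itself.

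At day 3, the floor at percentile 25 gave 6 lower members, where 3388 of 16837 genes were lower. That at percentile 75 gave 3 higher (604 of 7660 genes) and a median of -0.094 for the others. The mean of all probe sets gave 3 higher at day 3 (923 of 13684 genes). It gave 9 lower at day 50 (1565 of 14106 genes) and 2 lower at day 300 (1223 of 12994 genes). Against eGFP day 3, the medians were -0.73 and -0.0078 at day 50 and 0.90 and 0.34 at day 300 for enzymes and others. At day 300, 2 members were lower (15.8% of all genes). Without the suffixed probe sets the others had 1.21 between the DKmix arrays. Without HIF subunits, sensors and inhibitors they had 1.60 there and 0.53 at day 50, with 3 members higher at day 3 (10.2% of all genes).

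Of the single genes past 2-fold, Vegfa at day 50 had 0.048 and Ndrg1 -0.28 with the mean of all probe sets. Ndrg1 also had 0.67 at day 3 and -1.03 at day 50 without suffixed probe sets. Against eGFP day 3, Pfkm had 0.081 and Ndrg1 -0.65 at day 50, and Egln3 -0.28 and Ankrd37 -0.18 at day 300. Of 18 members past 2-fold between day 300 and β-catenin day 3, 11 remained so on the hybridisation control scale and 14 against eGFP day 3. Signal near the floor limits Eno2, Adm, Epas1 and Gbe1, each at or below it on 3 arrays, and Car12, on 2. It also limits the ratios of Aldoc at day 300, where the signal was 49.2.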
